A study of Homo sapiens with 6 samples.

Results

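The tripartite motif (TRIM) genes were taken as every symbol made of TRIM followed by a digit, which gave 76 of the 19225 genes listed. Of these 76, 47 had a mean of at least 0.5 FPKM over the 6 libraries and were tested, 13 were detected at a lower mean, and 16 were at 0 in every library. The members *TRIM5*, *TRIM14*, *TRIM21*, *TRIM22*, *TRIM25* and *TRIM34*, which interferon is known to induce, were set against the other 70. Of these 6, *TRIM5*, *TRIM14*, *TRIM21* and *TRIM25* were tested, beside 43 of the others. No TRIM gene passed the test between MDM4 and control cells, and neither did any other of the 12884 genes tested, *MDM4* included. The interferon-responsive members *TRIM14* and *TRIM21* lay slightly lower with MDM4, *TRIM5* and *TRIM25* lay level, *TRIM22* was rare and *TRIM34* was all but absent. At the median, the family differed more between replicate 3 and the other replicates (0.27 on the log2 scale) than between the groups (0.08). So did all genes tested (0.21 against 0.084), and the comparison with replicate 3 was chosen after the values were seen.

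All libraries came from SW480, an established human colon cancer cell line whose labels give mutant p53, with 3 control libraries and 3 libraries from cells transfected with a plasmid for MDM4, a RING-domain relative of MDM2 that binds p53. The labels give plasmid transfection for both groups without saying what the control plasmid carried, and they call the second group exercised, which was read as the MDM4 group because no other group than control is named. MDM4 was thus raised from a plasmid, transiently, in cells of a single line, and the comparison holds for that setting only. Nothing says that the replicates were separate cultures, so p-values measure only the spread between these libraries, which may be technical.

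Reads on genes numbered 32691719 to 44249945 in a library, and the 10 most abundant genes took 4.02% to 4.56% of them. The control replicates held *MDM4* at 6.35, 7.09 and 5.13 FPKM and the MDM4 replicates at 188, 185 and 56.3 FPKM, so no label was contradicted and MDM4 replicate 3 held the least. The labelled epithelial origin was met by 7 of 8 colon epithelium markers above 0.5 FPKM, with *CEACAM5* near 0 in all libraries. The 8 markers summed to 4540 to 4900 FPKM in the control and 4220 to 4520 FPKM in the MDM4 libraries. The 6 macrophage and leukocyte markers summed to 6 to 7.16 and 5.91 to 6.34 FPKM. Of these 6, 3 averaged at least 0.5 FPKM, led by *CD68* at 4.26 to 5.01 FPKM, while the pan-leukocyte gene *PTPRC* was at or near 0 throughout. Replicate 3 of either group stood apart from the other replicates, so results are given with and without it.

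TRIM proteins are named after a shared array of a RING domain, which hands ubiquitin from an E2 enzyme to a target, B-box zinc fingers and a coiled coil through which they pair. The C-terminal part differs between subfamilies and picks the target: PRY-SPRY domains in most immune members, NHL repeats, COS boxes bound to microtubules, or the PHD finger and bromodomain of chromatin members. Interferon acts on the interferon-stimulated response element (ISRE) of its target promoters, and several TRIM genes are such targets. In epithelial cells they are known for restricting viruses, for tuning the RIG-I pathway and for their part in cancer.

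The promoters of the interferon-responsive members are shown first, because interferon is known to act through an element there. The ISRE core was searched as GAAANNGAAA on both strands in the RefSeq promoters of GRCh38.p14, from 250 bases before each transcription start to 50 bases from it on. It was present in 1255 of 35116 promoters (3.57%). Promoters of 5 of the 6 genes were in the table, *TRIM22* being the one that was not. Of those 5, 4 held a match, beside 6 of 55 other TRIM genes with a promoter there. These counts are by gene, with a match in any promoter of a gene enough, while the share of 3.57% is by promoter. *TRIM34* also had a promoter without a match. *TRIM25* held none in its 300 bases. A second motif, GAS, was searched as TTCNNNGAA in the same promoters. It was present in 0 of the 5 genes, in 12 of the 55 other TRIM genes and in 7.66% of all promoters. In the lines that follow, each read in the direction of transcription, capitals mark the ISRE match. This match is written as its reverse complement where it lies on the opposite strand.
TRIM5: atagtttatcTTTCACTTTCctgccctgag
TRIM14: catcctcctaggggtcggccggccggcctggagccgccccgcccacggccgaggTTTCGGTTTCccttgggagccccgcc
TRIM21: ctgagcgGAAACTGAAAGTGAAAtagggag
TRIM34: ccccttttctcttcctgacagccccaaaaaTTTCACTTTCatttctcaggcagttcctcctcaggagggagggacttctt

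The stretch of *TRIM5* is chr11:5685082-5685111 on the minus strand, and its match begins 27 bases before the RefSeq start, inside a 5′ untranslated exon of another *TRIM5* transcript in GENCODE 29. That of *TRIM14* is chr9:98119223-98119302 on the minus strand, outside any annotated exon, with the match 26 bases before the start. In *TRIM21*, at chr11:4393663-4393692 on the minus strand, overlapping matches begin 17 and 23 bases past the start, in the untranslated first exon. In *TRIM34*, at chr11:5624881-5624960 on the plus strand, the match begins 90 bases before the start, within the gene bodies of *TRIM34* and of the readthrough gene *TRIM6-TRIM34*. This stretch of *TRIM34* also meets an annotated exon of *AC104389.4*. A match describes the letters of a window and was not tested for function.

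*TRIM21* is the cytosolic antibody receptor, a RING ligase that sends antibody-coated virus to the proteasome. Its gene is at chr11:4384897-4393696 on the minus strand. Control replicates 1 to 3 held *TRIM21* at 8.92, 7.98 and 9.52 FPKM, and it was at 7.06, 7.24 and 7.89 FPKM in the MDM4 replicates, from 485 to 770 reads. All 3 MDM4 libraries thus lay below all 3 control libraries, though the nearest pair was only 0.09 FPKM apart. *TRIM21* averaged 8.81 ± 0.776 FPKM in the control and 7.4 ± 0.436 FPKM in the MDM4 libraries (SD, n = 3 each), and the exact two-sided permutation test gave p = 0.1, the smallest that 3 against 3 libraries allow. The log2 fold change was -0.25 (SE 0.11, unadjusted p = 0.0658, adjusted p = 1 from limma). Within same-numbered libraries the log2 difference was -0.33, -0.14 and -0.27 in replicates 1 to 3. It was the only one of 47 tested TRIM genes whose groups did not overlap (2.13%), where 3.76% of all 12884 genes tested had MDM4 below control in every library and 3.1% had it above.

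*TRIM14* lacks a RING and serves as a mitochondrial adaptor of the antiviral protein MAVS. Its gene is at chr9:98069275-98119212 on the minus strand, with 422 exonic bases shared with *NANS* on the opposite strand. *TRIM14* was at 24.2, 22.7 and 16.5 FPKM in the control replicates and at 17.1, 18.9 and 16.2 FPKM in the MDM4 replicates, from 1672 to 3377 reads. Control replicates 1 and 2 lay above every MDM4 library, while control replicate 3 lay among them, so the groups overlapped (exact two-sided permutation test, p = 0.3). *TRIM14* averaged 21.1 ± 4.09 FPKM in the control and 17.4 ± 1.35 FPKM in the MDM4 libraries (SD, n = 3 each), with a log2 fold change of -0.26 (SE 0.15, adjusted p = 1 from limma). By replicate number the log2 difference was -0.49, -0.27 and -0.025. Over replicates 1 and 2 alone it was -0.38 with an unadjusted p of 0.00139 and an adjusted p of 0.151 from limma, the lowest adjusted p of a tested TRIM gene there.

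*TRIM5* blocks incoming retroviruses by caging their capsid, and *TRIM25* is the ligase known for ubiquitinating RIG-I. *TRIM5*, at chr11:5663557-5938619 on the minus strand, was at 6.6, 7.44 and 7.51 FPKM in the control replicates and at 6.66, 6.75 and 8.1 FPKM in the MDM4 replicates. The groups overlapped, with means of 7.18 ± 0.505 and 7.17 ± 0.806 FPKM (SD, n = 3 each) and a log2 fold change of -0.0048 (SE 0.13). Its sign turned under other scalings and without single libraries. *TRIM25*, at chr17:56836387-56914080 on the minus strand, was at 45.2, 48.4 and 37.5 FPKM in the control replicates and at 45, 45.6 and 41 FPKM in the MDM4 replicates. *TRIM25* averaged 43.7 ± 5.58 and 43.8 ± 2.49 FPKM (SD, n = 3 each), its log2 fold change was 0.011 (SE 0.11), and its sign turned over replicates 1 and 2 alone. The spread of *TRIM25* in the control libraries came from replicate 3, which was the lowest of its group, as in the MDM4 libraries.

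*TRIM22*, a nuclear restriction factor at chr11:5689689-5737089 on the plus strand, within the annotated span of *TRIM5* on the other strand, was below the filter. It was at 0.754, 0.591 and 0.193 FPKM in the control replicates, from 104, 65 and 24 reads, and at 0.392, 0.439 and 0.363 FPKM in the MDM4 replicates, from 44, 47 and 37 reads. *TRIM22* was higher in control replicates 1 and 2 than in any MDM4 library, and lowest of all in control replicate 3. The log2 difference by replicate number was -0.80, -0.36 and 0.66. With the filter lowered to 0.1 FPKM the log2 fold change was -0.17 (SE 0.40, adjusted p = 1 from limma), and over replicates 1 and 2 alone it was -0.58 (SE 0.28, adjusted p = 0.63 from limma). *TRIM34*, a capsid-binding relative of *TRIM5* at chr11:5619764-5644398 on the plus strand, had 1 read in control replicate 1, 1 in MDM4 replicate 1 and 0 elsewhere. Of its 2690 exonic bases, 2233 are shared with *TRIM6-TRIM34*, itself at 0 in all libraries, so its count is uncertain, and no fold change was given.

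**Figure D1:**
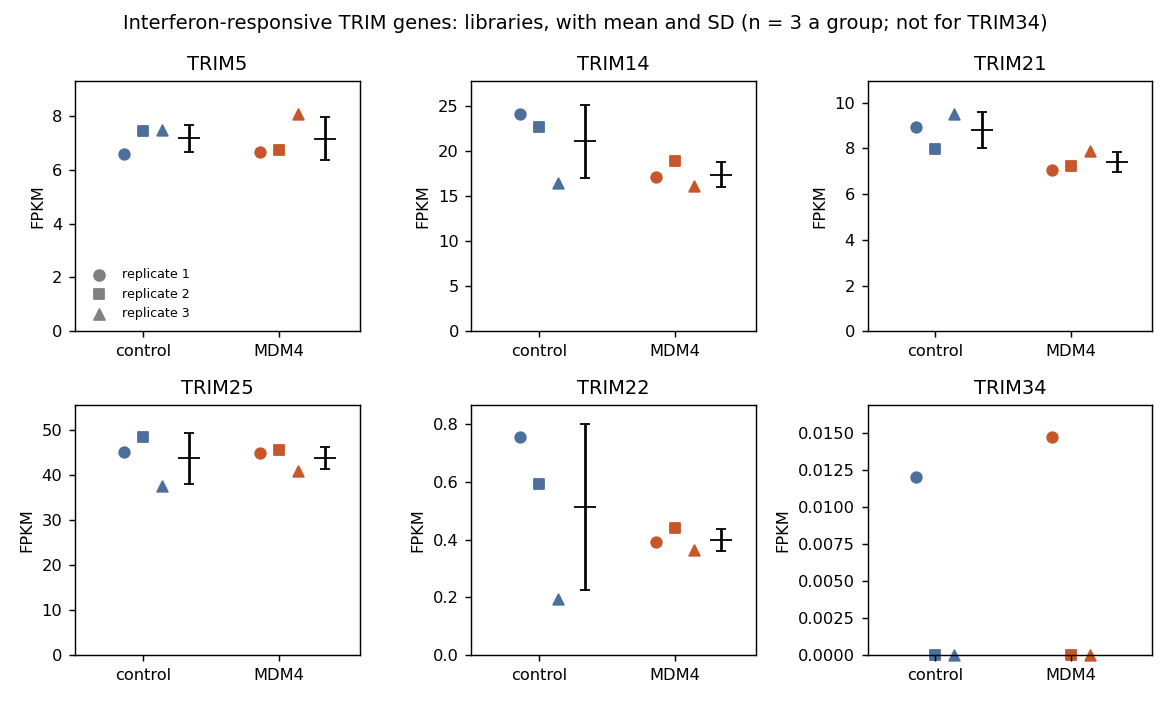
FPKM of the 6 interferon-responsive TRIM genes in each control (blue) and MDM4 (orange) library, with marker shapes for the replicate number and black bars for the mean ± SD (n = 3) of all but *TRIM34*. *TRIM21* is the one gene whose groups do not overlap. Control replicate 3 is the lowest control library for *TRIM14*, *TRIM25* and *TRIM22* and the highest for *TRIM5* and *TRIM21*.

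The median log2 fold change of the 4 tested interferon-responsive members was -0.13, with 3 lower and 1 higher. It was -0.0051 over the 43 other TRIM genes, with 23 lower and 20 higher, and -0.0091 over all 12884 genes tested. The rest of the family thus lay close to all genes. Of the 4, *TRIM14* (-0.26) and *TRIM21* (-0.25) lay a little lower. *TRIM5* (-0.0048) and *TRIM25* (0.011) lay level with all genes, so the median of the 4 fell between these pairs. By replicate number the median of the 4 was -0.17, -0.14 and 0.042, against 0.0096, -0.0037 and -0.0029 for the others. The 4 genes thus lay below 0 at the median in replicates 1 and 2 and not in replicate 3. Their summed level with *TRIM22* and *TRIM34* was 85.7, 87.1 and 71.2 FPKM in the control replicates and 76.2, 78.9 and 73.5 FPKM in the MDM4 replicates, with control replicate 3 the lowest of the 6 libraries. *TRIM25* made up the largest part of this sum. The low sum was not shared by all members, since *TRIM5* (7.51 FPKM) and *TRIM21* (9.52 FPKM) had their highest control value in replicate 3. In bulk samples, fewer cells that express a gene and less RNA in each cell cannot be told apart.

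Other interferon-induced genes had larger differences in the same libraries. Of 20 genes listed for the interferon response, 18 were tested and all 18 had a lower log2 value with MDM4, at a median of -1.35. The list was chosen with earlier results of these data known, so its counts describe these libraries and are not independent support. Summed over the 20, the control replicates held 685, 715 and 229 FPKM and the MDM4 replicates 200, 210 and 219 FPKM. Control replicate 3 thus held about the level of the MDM4 libraries, and the median log2 difference by replicate number was -2.15, -1.75 and 0.024. Over replicates 1 and 2, which leave 2 libraries a group, 14 of these 18 genes fell and were called, which asks for an adjusted p under 0.05 together with a log2 fold change beyond ±1, among them the antiviral GTPase gene *MX1* (log2 fold change -2.97, adjusted p = 8.96e-09 from limma). In that fit 0.29% of 12746 genes were called and 0 of 46 TRIM genes were, *TRIM22* included. The comparison that follows rests on 1 control and 1 MDM4 library of replicate 3, so its p-values measure only the spread within replicates 1 and 2. The difference in the MDM4 effect between replicate 3 and the other replicates passed an adjusted p of 0.05 for 12 of the 18, for 0 of 47 TRIM genes and for 0.194% of all genes. Below an unadjusted 0.05, limma held 1 of 47 TRIM genes in that term (2.13%), which was *TRIM14*, where 293 of all genes (2.27%) passed it, so the share of TRIM genes lay at the background.

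**Figure D2:**
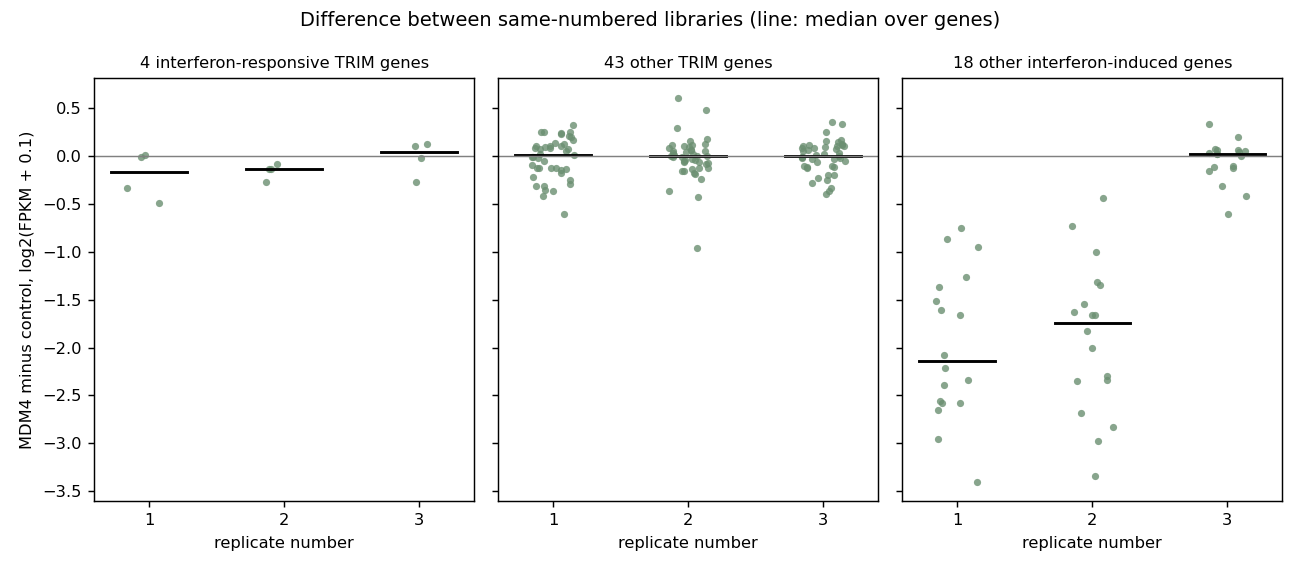
Difference in log2(FPKM + 0.1) between the MDM4 and the control library of the same number, 1 point a gene, with the median as a black line, for the 4 interferon-responsive TRIM genes, the 43 other TRIM genes and 18 other interferon-induced genes. The TRIM genes stay within 1 log2 unit of 0 in every replicate, while the other interferon-induced genes have medians of -2.15 and -1.75 in replicates 1 and 2 and 0.024 in replicate 3.

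Across the family, 0 of 47 tested genes were called between MDM4 and control (0% of all 12884 genes, MDM4 included). At an unadjusted p under 0.05, 0 TRIM genes and 222 of all genes (1.72%) remained, and the smallest unadjusted p of a TRIM gene was that of *TRIM21*. With a block for the replicate number the calls stayed at 0 of 47, where 0.0155% of all genes were called, and the smallest adjusted p was 0.219. At an unadjusted p under 0.05 the block held 4 of the 47 (8.51%), which were *TRIM14*, *TRIM21*, *TRIM29* and *TRIM33*, where 12.6% of all genes passed it. The median standard error of a TRIM log2 fold change was 0.15 without the block and 0.081 with it, and no TRIM gene reached an absolute log2 fold change of 1. The log2 difference was below 0 in all 3 replicate numbers for 6 TRIM genes and above 0 in all 3 for 6, where 18.6% and 16.6% of all genes did so.

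The 8 other members with the largest absolute log2 fold changes were *TRIM10* (-0.42), *TRIM29* (-0.25), *TRIM74* (-0.23), *TRIM33* (0.23), *TRIM13* (0.19), *TRIM72* (0.18), *TRIM38* (-0.17) and *TRIM15* (-0.17), all on the log2(FPKM + 0.1) scale and all at an adjusted p of 1 from limma. *TRIM29*, a RING-less member of squamous and epithelial cells at chr11:120111275-120185529, was at 49.9, 45.9 and 69.6 FPKM in the control replicates and at 40.3, 38.7 and 60.7 FPKM in the MDM4 replicates. Each MDM4 library lay below the control library of its number, by a log2 difference of -0.31, -0.24 and -0.20, while replicate 3 lay above the others in both groups so that the groups overlapped. With the block, the unadjusted p of *TRIM29* was 0.001 and the adjusted p 0.219 from limma. *TRIM33*, a chromatin ligase that acts on SMAD4 at chr1:114392777-114511160, went the other way. It was at 10.2, 12.8 and 9.7 FPKM in the control and at 12.7, 12.9 and 12.5 FPKM in the MDM4 replicates, with a log2 fold change of 0.23 (SE 0.12) and a blocked unadjusted p of 0.0228 (adjusted p = 0.35 from limma). *TRIM33* was thus level in the MDM4 libraries, and control replicate 2 alone reached them.

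*TRIM10*, an erythroid member in the major histocompatibility region at chr6:30151945-30160934, was at 0.546, 0.676 and 1.05 FPKM in the control and at 0.578, 0.299 and 0.785 FPKM in the MDM4 replicates, from only 34 to 138 reads. *TRIM74*, at chr7:72959485-72969466, had 28 to 61 reads a library and a close relative in *TRIM73*, with which it may exchange reads. The values of both rest on little depth, and their groups overlapped. *TRIM13*, an ER-anchored ligase at chr13:49995888-50020481, was at 4.17, 4.39 and 3.18 FPKM in the control and at 4.7, 4.64 and 4.02 FPKM in the MDM4 replicates, and it shares 1086 exonic bases with *KCNRG*. *TRIM72*, the membrane repair protein MG53 of muscle, was at 6.74, 6.01 and 7.3 FPKM in the control and at 8.03, 7.35 and 7.28 FPKM in the MDM4 replicates. In both genes every MDM4 library but that of replicate 3 lay above all 3 control libraries. *TRIM38* and *TRIM15* differed less by group than by replicate and are described with the replicates.

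By subfamily, none of the lists held a called gene, as 0 of all 12884 genes tested were called in this fit. The PHD-bromodomain members *TRIM24*, *TRIM28*, *TRIM33* and *TRIM66* had log2 fold changes of 0.02, -0.11, 0.23 and 0.018, with a median of 0.019. The NHL-repeat members were 3 tested of 4, with 2 lower and a median of -0.085, from *TRIM3* (-0.14) to *TRIM32* (0.052). The COS-box members were 4 tested of 8, with a median of 0.0064, from *TRIM54* (-0.093) to *TRIM46* (0.049). The 6 members without a RING had a median of -0.036, from *TRIM14* to *TRIM16L* (0.14). The transmembrane members *TRIM13* and *TRIM59* lay at 0.19 and 0.12. Of 16 other members known from innate immunity, 14 were tested, 9 lower and 5 higher, at a median of -0.029, from *TRIM38* to *TRIM13*. Of 8 linked to p53, 7 were tested at a median of 0.02, from *TRIM29* to *TRIM13*.

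Of 4 TRIM proteins that carry other names, 0 were called between MDM4 and control, as were 0 of all 12884 genes tested. *PML*, the organizer of nuclear bodies and itself interferon-induced, was at 18, 14.2 and 19.6 FPKM in the control and at 13.2, 13.2 and 18.7 FPKM in the MDM4 replicates, a log2 fold change of -0.20 (adjusted p = 1 from limma). *MID1*, a microtubule-bound ligase, had the highest of the 4, at 0.16. Among 13 genes for E2 enzymes and E2 variants, from which RING ligases take ubiquitin or with which they work, 8 were lower and 5 higher at a median of -0.025, and *UBE2L6*, the interferon-induced E2 for ISG15, was the lowest. *UBE2L6* was at 21, 21.5 and 19.6 FPKM in the control and at 13.7, 11.9 and 17.3 FPKM in the MDM4 replicates, so its groups did not overlap (exact two-sided permutation test, p = 0.1). Among the 13 this held for *UBE2L6* alone (7.69%), where 3.76% of all genes tested had MDM4 below control in every library and 3.1% had it above. The log2 fold change of *UBE2L6* was -0.55 over all libraries (adjusted p = 1 from limma) and -0.73 over replicates 1 and 2 (adjusted p = 0.00323 from limma), short of the fold of the call.

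Among 19 tested partners of TRIM proteins in RNA and DNA sensing, 13 were lower and 6 higher, at a median of -0.059, and 3 were called over replicates 1 and 2, where 0.29% of all genes were. These 3 were the RNA sensor gene *IFIH1* (log2 fold change -1.17, adjusted p = 2.62e-04 from limma), the transcription factor gene *IRF7* (-1.19, adjusted p = 3.87e-04 from limma) and *ISG15* (-1.35, adjusted p = 5.60e-07 from limma), a ubiquitin-like modifier counted in the interferon list as well. *DDX58*, which encodes RIG-I, the target of TRIM25, was at 6.29, 7.04 and 5.18 FPKM in the control and at 3.38, 3.54 and 5.41 FPKM in the MDM4 replicates. In replicates 1 and 2 *DDX58* thus lay lower with MDM4, while in replicate 3 the libraries lay level, with a log2 fold change of -0.92 over replicates 1 and 2 (adjusted p = 0.00349 from limma). *MAVS*, for the adaptor that TRIM14 binds, lay at 17.4, 19 and 21 FPKM in the control and at 18.9, 18.5 and 23.4 FPKM in the MDM4 replicates, with overlapping groups. The highest partner was *IKBKG*, the NEMO subunit, at a log2 fold change of 0.19.

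In level, the family was led by *TRIM28*, the corepressor KAP1 of KRAB zinc finger proteins, at chr19:58544091-58550722. *TRIM28* was at 255, 218 and 207 FPKM in the control and at 214, 224 and 192 FPKM in the MDM4 replicates, which was 24.3% to 28.8% of the summed FPKM of the family, itself between 791 and 884. After it came *TRIM29* with a mean of 50.8 FPKM, *TRIM16* with 49, *TRIM25* with 43.8, *TRIM27* with 37.6 and *TRIM2* with 35. *TRIM16*, at chr17:15627960-15684311, is a RING-less member of the response to damaged endomembranes, *TRIM27*, at chr6:28903002-28923989, a ligase first met as a fusion with RET, and *TRIM2*, at chr4:153152342-153339320, an NHL-repeat member of neurons. Between *TRIM29*, *TRIM16* and *TRIM25* the order differed among libraries, with *TRIM29* above *TRIM16* in both replicates 3 only. In all, 23 members had a mean over 10 FPKM, 19 lay from 1 to 10 FPKM and 5 tested members lay below 1 FPKM. The median of the 47 was 9.32 FPKM, against 11.2 FPKM for all genes tested.

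**Figure D3:**
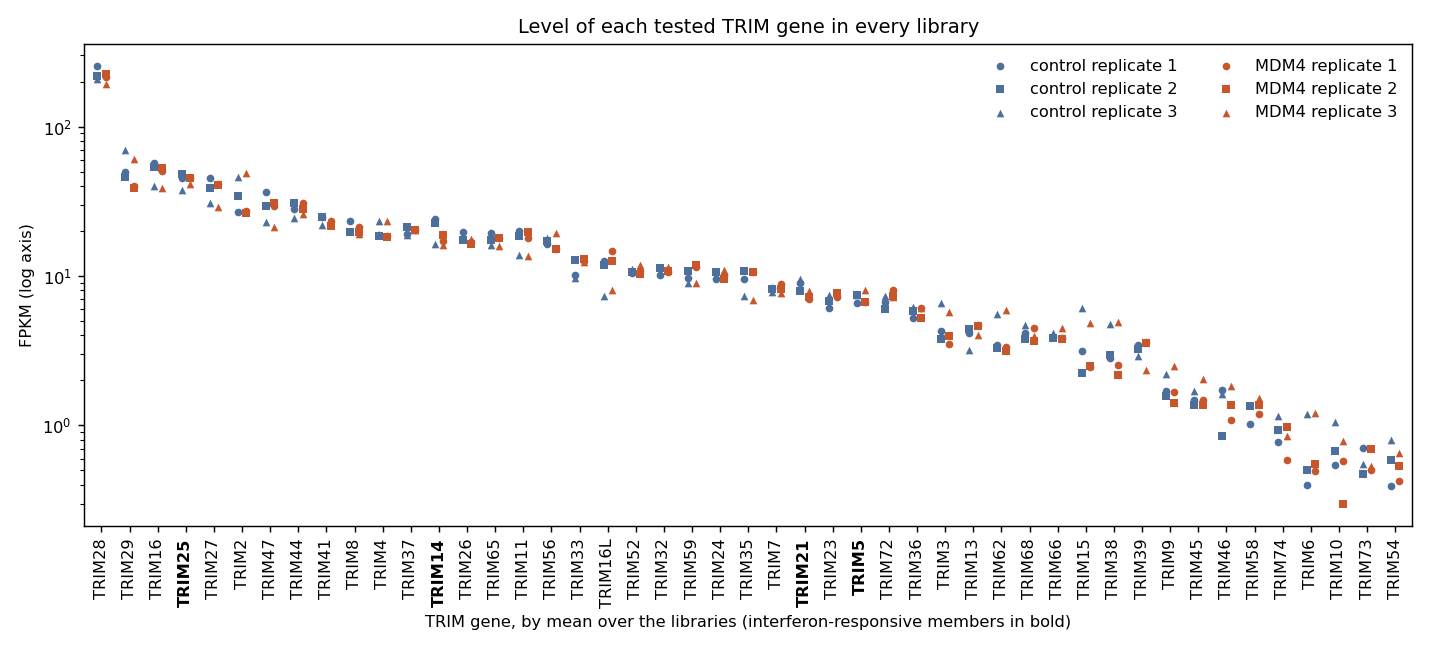
FPKM of the 47 tested TRIM genes on a log axis, ordered by their mean, with control libraries in blue, MDM4 libraries in orange and a marker shape for each replicate number. *TRIM28* stands above all others, and within many genes the triangles of replicate 3 from both groups lie together, away from replicates 1 and 2.

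The silent members clustered by position. Of 22 TRIM genes on chromosome 11, 12 were at 0 in every library and 8 were tested, and the 12 included *TRIM48*, *TRIM49* and its copies *TRIM49B*, *TRIM49C*, *TRIM49D1* and *TRIM49D2*, *TRIM51*, *TRIM64*, *TRIM64B*, *TRIM64C* and *TRIM77*, many of them near-identical copies between which counting could split or discard reads, as well as the readthrough gene *TRIM6-TRIM34*. On chromosome 6, where a cluster lies in the major histocompatibility region, 6 of 9 members were tested and 2, *TRIM40* and *TRIM39-RPP21*, were at 0. *TRIM39-RPP21* shares 1246 exonic bases with *TRIM39*, which was at 3.44, 3.23 and 2.9 FPKM in the control and at 3.64, 3.54 and 2.36 FPKM in the MDM4 replicates. All 6 tested members on chromosome 6 had a log2 fold change below 0, at a median of -0.15 and with overlapping groups. On chromosome 11, 5 of 8 did, at a median of -0.033. Of all 12884 genes tested, 6803 lay below 0, and an effect of position was not tested. A count of 0 reads allows up to 3 reads in a library, for counting error only, and 4 further members had at most 3 reads in any library.

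The larger difference lay between replicate numbers. Comparing replicate 3 with replicates 1 and 2 over both groups, 24 of 47 TRIM genes passed an adjusted p of 0.05 in limma, 11 higher (23.4%) and 13 lower (27.7%) in replicate 3, where 29.6% of all genes were higher and 14.6% lower. Quantile normalization moved this split to 8 higher and 15 lower, and the excess of lower genes turned to 12 higher and 11 lower with no filter, to 10 and 9 without MDM4 replicate 1 and to 9 and 7 without control replicate 3. The median absolute difference was 0.27 for replicate 3 against 0.08 for MDM4 over the 47 genes, and 0.21 against 0.084 over all genes. In 41 of 47 TRIM genes (87.2%) the replicate 3 difference was the larger, as in 75.8% of all genes and in 5.56% of the 18 interferon-induced genes. This comparison was chosen after the values were seen, and what set replicate 3 apart was not tested.

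Higher in replicate 3 were *TRIM2*, *TRIM3*, *TRIM4*, *TRIM6*, *TRIM9*, *TRIM10*, *TRIM15*, *TRIM29*, *TRIM38*, *TRIM56* and *TRIM62*, with a median level of 4.12 FPKM. *TRIM6*, a ligase that makes unanchored ubiquitin chains, was at 0.402, 0.505 and 1.2 FPKM in the control and at 0.494, 0.556 and 1.22 FPKM in the MDM4 replicates, from 56 to 150 reads, a log2 difference of 1.16 (SE 0.21, adjusted p = 0.00155 from limma). *TRIM15*, a focal adhesion member at chr6:30163206-30172696, was at 3.17, 2.24 and 6.08 FPKM in the control and at 2.47, 2.51 and 4.83 FPKM in the MDM4 replicates, a log2 difference of 1.04 (SE 0.14, adjusted p = 2.80e-04 from limma). In both genes replicate 3 of either group lay above all libraries of replicates 1 and 2. *TRIM38*, a negative regulator of inflammatory signalling at chr6:25962802-25991226, was at 2.83, 2.97 and 4.75 FPKM in the control and at 2.54, 2.19 and 4.94 FPKM in the MDM4 replicates, a log2 difference of 0.86. *TRIM2* and its NHL-repeat relative *TRIM3* were higher by log2 differences of 0.73 and 0.65, and *TRIM29* by 0.58.

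Lower in replicate 3 were *TRIM11*, *TRIM13*, *TRIM14*, *TRIM16*, *TRIM16L*, *TRIM25*, *TRIM27*, *TRIM28*, *TRIM35*, *TRIM39*, *TRIM44*, *TRIM47* and *TRIM59*, with a median level of 19.3 FPKM. *TRIM16L*, a short copy of *TRIM16* at chr17:18697998-18736118 that may exchange reads with it, was at 12.7, 11.9 and 7.4 FPKM in the control and at 14.8, 12.7 and 8.06 FPKM in the MDM4 replicates, a log2 difference of -0.74 (SE 0.083, adjusted p = 8.90e-05 from limma). *TRIM16* itself was at 57.4, 54 and 40.3 FPKM in the control and at 50.6, 52.6 and 38.8 FPKM in the MDM4 replicates, a log2 difference of -0.44. *TRIM16* and *TRIM16L* thus moved together, with replicate 3 the lowest library of both groups. *TRIM27* and *TRIM47* were lower by log2 differences of -0.46 and -0.50 and *TRIM28* by -0.19. Among the interferon-responsive members *TRIM14* (-0.33, adjusted p = 0.0119 from limma) and *TRIM25* (-0.23, adjusted p = 0.0118 from limma) were lower in replicate 3, *TRIM5* and *TRIM21* had values of 0.18 and 0.16 that did not pass the test.

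**Figure D4:**
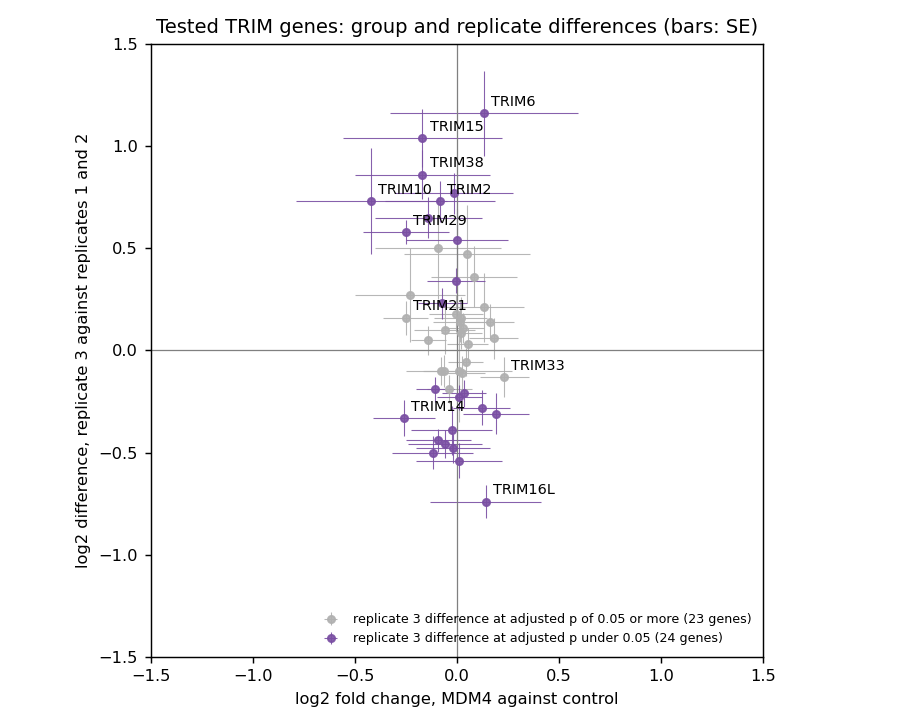
Each of the 47 tested TRIM genes by its log2 fold change between MDM4 and control (horizontal axis) and its log2 difference between replicate 3 and replicates 1 and 2 over both groups (vertical axis), with bars for the standard errors. The 24 genes past an adjusted p of 0.05 for replicate 3 are purple, and the cloud is taller than it is wide, from -0.74 (*TRIM16L*) to 1.16 (*TRIM6*) on the vertical axis but from -0.42 (*TRIM10*) to 0.23 (*TRIM33*) on the horizontal axis.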

How the data were processed

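RNA was measured in 6 libraries of SW480 cells, 3 control and 3 MDM4, with oligo(dT)-selected mRNA read on an Illumina HiSeq2000. Per gene symbol the authors deposited FPKM values, which are reads per gene scaled by gene length and library total. The aligner, genome build, counting rule and strand setting are not given in the sources used here. Read counts were recovered from the FPKM steps for 17189 of 17189 genes above 0 (within 0.02 reads of a whole number) and served for depth and for voom. Genes that averaged 0.5 FPKM or more (12884) were fitted as log2(FPKM + 0.1) with limma 3.58.1 in R 4.3.3 (lmFit, eBayes with trend), with no block. All their p-values were adjusted together by the Benjamini-Hochberg method. A call needed an adjusted p under 0.05 together with a log2 fold change beyond ±1, and terms for replicate 3 at an adjusted p under 0.05. The fold change understates the change of low genes. The recovery of reads and the limma terms for MDM4 and for replicate 3 were tested on simulated data. The term for a different MDM4 effect in replicate 3 was tested only on simulated data without such an effect.

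Members and gene lists were chosen with earlier results of these data known. Named were MDM4, the 6 interferon-responsive members, the 8 other tested members with the largest absolute log2 fold change, the 6 with the highest mean, the PHD-bromodomain members, any called TRIM gene, members that share reads, and the extremes of each list; MX1, DDX58, MAVS, IFIH1, IRF7, CEACAM5 and PTPRC were named after their values were seen. Deviations from the group mean correlated across genes at 0.46, 0.45 and 0.78 between same-numbered libraries, so the numbers were taken to pair them, although replicates 1 and 2 also correlated across numbers at 0.46 and 0.44. Alternatives were the replicate block, pseudocounts of 0.5 and 1, a filter of 0.1 FPKM or none, TPM, median ratio and quantile scaling, eBayes without trend, replicates 1 and 2 alone, voom, and each library left out. The comparison of replicate 3 with the others was added after the data were seen. Positions are from GENCODE release 29 on GRCh38 and promoters from RefSeq on GRCh38.p14. Python 3.11.15, pandas 2.3.3, scipy 1.17.1 and matplotlib 3.10.9 were used.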

Additional observations from a re-analysis of the deposited data

How the results depend on the processing

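No TRIM gene was called between MDM4 and control under any of the 18 alternatives, the replicate block with 0 calls included. A call asks for a log2 fold change beyond ±1, and the largest absolute value of a tested TRIM gene was 0.42 without the block. These counts therefore cannot tell whether smaller differences hold across the alternatives. With the block 2 of all genes were called in place of 0, *MDM4* being 1 of them (adjusted p 4.77e-05 in place of 0.161 from limma). For *TRIM14* the log2 fold change was -0.16 without control replicate 1 and -0.43 without control replicate 3, the ends of its range, and for *TRIM21* it ran from -0.31 to -0.19. That of *TRIM25* turned to -0.047 over replicates 1 and 2 alone and ran from -0.095 to 0.088 with each library left out. That of *TRIM5* turned to 0.024 with TPM and 0.0038 with median ratio scaling and ran from -0.094 to 0.045 with each library left out. Over the other TRIM genes the median became 0.024 (TPM scaling), 0.0035 (median ratio scaling) and -0.023 (replicates 1 and 2 alone), and ran from -0.041 to 0.038 with each library left out. That of the 4 tested interferon-responsive members stayed between -0.15 and -0.089. The term for a different MDM4 effect in replicate 3 held 0 TRIM genes in 11 alternatives and 1 without control replicate 1, which was *TRIM2* (log2 difference 0.44, adjusted p = 0.0209 from limma), so the range with a library left out was 0 to 1. Leaving out a library of replicate 3 was not run for that term, since no library would remain to estimate it. The genes that differed between replicate 3 and the others numbered 22 to 26 under other processing and 16 to 26 with a library left out, with 16 without control or without MDM4 replicate 3, where the lone library of replicate 3 was taken to vary like the others. Depth limits *TRIM22*, *TRIM34*, *TRIM6*, *TRIM10* and *TRIM74*, which rest on at most 150 reads a library, as do several others. The causes of these shifts were not tested.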
